A study of Mus musculus with 24 samples.

Results

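The genes described here carry the mouse symbol stem Nduf, given to nuclear genes for NADH:ubiquinone oxidoreductase, the respiratory complex I, and to some of its assembly factors. They were taken as every entry of the single-cell table with a name starting with Nduf, which gave 42 of 27297 gene entries and 22330 of 2109554 UMIs (1.06%). A UMI, or unique molecular identifier, is a tag that lets each captured RNA molecule be counted once. The cells were mouse haematopoietic stem cells (HSCs) of the strain -60/DR5-TA-RA-CFP, sorted as LSK (lineage-, Sca-1+, Kit+), CD150+ and CD48-. All of them came from that strain, which carries a cyan fluorescent protein (CFP) reporter, and their CFP status was mixed. The labels give neither age nor treatment for these cells, and name batches where other samples of the series name a mouse. Each cell was index-sorted into a well, so its CFP and scatter values were kept with its RNA counts. In all, 1430 wells had both an index record and at least 500 UMIs, with 356, 345, 361 and 368 cells in sort plates 2, 3, 4 and 5. The labels list 8 single-cell batches, but the well names do not tie a well to a batch. The 4 plates therefore served as the replicates. The p-values rest on how much the difference between fractions varies from plate to plate, which may be technical. In edgeR that spread is mostly pooled over all genes tested, so a gene's own plates weigh little in it.

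Complex I is the entry point of the mitochondrial electron transport chain: it oxidises NADH, passes the electrons through a flavin and a chain of iron-sulphur clusters to ubiquinone, and pumps protons across the inner membrane. Its catalytic core is encoded partly in the nucleus and partly in mitochondrial DNA, and a large set of accessory subunits surrounds the matrix arm and the membrane arm. Quiescent HSCs are known for relying strongly on glycolysis, and oxidative metabolism is known to increase when they leave quiescence.

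Among the 42 entries were 7 nuclear catalytic core genes, 9 accessory subunits of the matrix arm, 20 accessory subunits of the membrane arm, 4 assembly factors and the complex IV associated pair Ndufa4 and Ndufa4l2. One entry, Ndufaf2;mimitin, carries a second name for the same gene. Of the mitochondrially encoded complex I genes, mt-Nd4 was the entry found in the table and it had 0 UMIs, so the mitochondrial part of the core was not analysed here. Every cell had at least 1 Nduf UMI, with a median of 13 UMIs from 10 Nduf genes. In total 38 of the 42 genes passed the filter on low counts used for testing. The genes left out were Ndufa4l2 with 0 UMIs, Ndufa4 with 32, the assembly factor Ndufaf1 with 37 and the core gene Ndufs1, which binds iron-sulphur clusters, with 61.

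Promoter sequences from RefSeq (GRCm38.p6) were found for 37 of the 42 genes. They are shown for the pair of genes that passed a test, Ndufa6 and Ndufc1, and for Ndufaf4, a gene with a match to a searched motif and a larger CFP difference that missed the threshold. These were chosen after their values were seen. Each is the 250 bases before the gene's start, 5′ to 3′ on the gene's strand. Capitals mark a match to the site of the nuclear respiratory factor NRF1, written as GCGC, then any 1 base, then TGCGC, or to the ETS family site CCGGAAG, both searched on both strands. Matches to different motifs never overlapped, since no window held both. The windows are chr15:82354292-82354541 on the minus strand for Ndufa6, chr3:51408956-51409205 on the minus strand for Ndufc1 and chr4:24897833-24898082 on the plus strand for Ndufaf4.
Ndufa6: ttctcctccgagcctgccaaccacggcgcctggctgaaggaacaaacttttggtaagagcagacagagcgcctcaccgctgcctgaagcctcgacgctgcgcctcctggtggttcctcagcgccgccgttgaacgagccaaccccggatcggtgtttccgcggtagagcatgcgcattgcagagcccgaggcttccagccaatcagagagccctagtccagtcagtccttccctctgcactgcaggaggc
Ndufc1: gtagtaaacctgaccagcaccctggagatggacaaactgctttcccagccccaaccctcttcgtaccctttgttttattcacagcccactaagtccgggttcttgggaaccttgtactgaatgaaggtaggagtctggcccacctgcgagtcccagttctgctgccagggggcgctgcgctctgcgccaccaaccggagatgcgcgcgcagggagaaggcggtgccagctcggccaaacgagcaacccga
Ndufaf4: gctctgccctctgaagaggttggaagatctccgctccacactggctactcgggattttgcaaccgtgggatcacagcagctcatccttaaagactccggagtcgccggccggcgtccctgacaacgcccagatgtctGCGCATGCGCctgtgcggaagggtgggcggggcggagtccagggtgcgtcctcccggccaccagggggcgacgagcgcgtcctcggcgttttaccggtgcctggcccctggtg
The Ndufaf4 window holds 1 NRF1 match, which starts 113 bases before the gene, and the Ndufa6 and Ndufc1 windows hold no match to either motif. Over the 37 genes, 7 had an NRF1 match (18.9%, against 4.23% of 27025 genes in the table) and 4 had an ETS match (10.8%, against 7.83%). The remaining 26 had neither. The Nduf windows were also richer in G and C, with a median of 57.8% against 52.4%, and the part of base composition in the NRF1 share was not tested.

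Plate 2 stood apart for 4 Nduf genes, and this bears on all results that use it. Levels are given as CPM, the UMIs of a gene scaled to a library of fixed total. Ndufb3, a membrane-arm accessory subunit, had 8.27 CPM in plate 2 (4 UMIs, exact Poisson 95% interval 2.25 to 21.2, counting error only), against 203, 261 and 241 in plates 3, 4 and 5. Ndufa3, also of the membrane arm, had 28.9 against 497, 521 and 451. The matrix-arm subunits Ndufs4, needed for stable assembly of the NADH-binding module, and Ndufa9, near the ubiquinone site, had 12.4 against 174, 122 and 124, and 16.5 against 205, 182 and 188. In each of these genes plate 2 was more than 5 times lower than every other plate, while the other plates lay close together. This held for 4 of 38 tested Nduf genes and for 109 of the 4652 tested genes (2.34%) in plate 2, against 2 genes in plate 3 and 0 in plates 4 and 5. The same 4 genes were more than 5 times lower in plate 2 after each cell was thinned to 500 UMIs. Ndufa5 was lower there too, at 35.1 against 115, 96.8 and 94.0 CPM. The other Nduf genes varied less: the highest plate was a median of 1.32 times the lowest over the 38 genes and 1.56 times over all tested genes. Ndufb3, Ndufa9 and Ndufa5 are named here after their values were seen. Since each plate is 1 sum, no test of plates was possible.

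**Figure D1:**
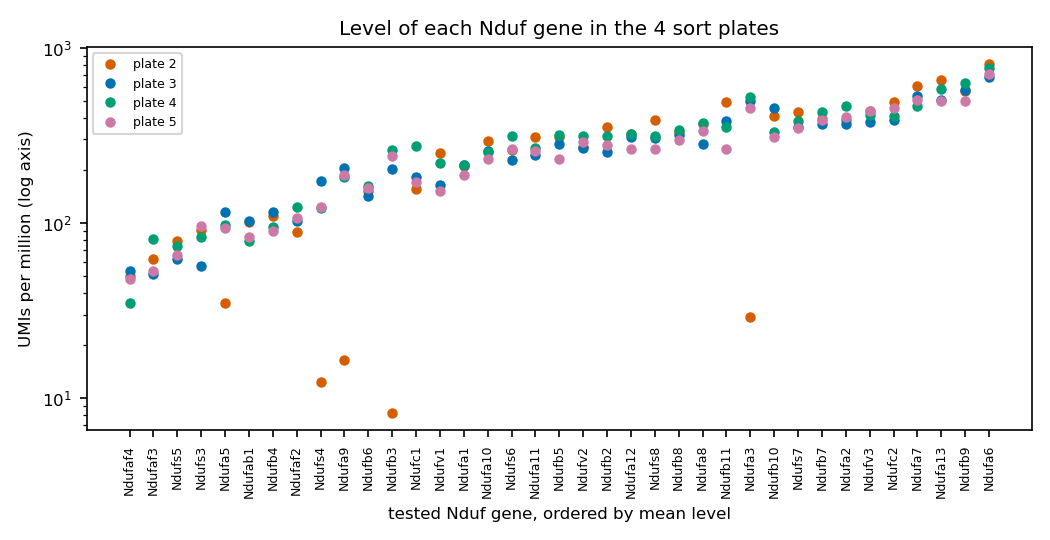
CPM (UMIs scaled to a fixed total, log axis) of 37 of the 38 tested Nduf genes in sort plates 2 to 5, 1 point per plate, genes ordered by their mean. Plate 2 lies more than 5 times below every other plate for Ndufs4, Ndufa9, Ndufb3 and Ndufa3, and at 35.1 for Ndufa5.

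The first comparison asked whether complex I transcripts differ between HSCs bright and dim for the CFP reporter. Within each plate the 20% of cells highest in CFP were called bright and the lowest 20% dim (286 cells each), the rest intermediate (858 cells). The summed Nduf share of UMIs was 1.05%, 1.15%, 1.20% and 1.06% in bright cells of plates 2 to 5 and 1.02%, 0.979%, 1.05% and 0.968% in dim cells. Bright was above dim in 4 of 4 plates, by 0.111 ± 0.0597 percentage points (SD, n = 4 plates), with intermediate cells at a mean of 1.05%. The means were 1.11% ± 0.0726 in bright and 1.00% ± 0.0391 in dim cells. No p is given for this sum, since the genes were chosen with earlier results of these data known.

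The difference was smaller with each cell thinned to 500 UMIs, but close to its full-depth size at 1000 UMIs. Bright cells held more UMIs, with a median of 1813.5, while intermediate cells had 1234 and dim cells 1060. After each cell was thinned to 500 UMIs, the bright share was 0.994%, 1.14%, 1.16% and 1.02% and the dim share 1.07%, 1.04%, 1.01% and 1.03%. Bright was then above dim in plates 3 and 4 and below it in plates 2 and 5, with a mean difference of 0.0405 ± 0.106 points, within the spread between plates. Thinning to 1000 UMIs, which 1025 cells allow, kept bright above dim in 4 of 4 plates (0.101 ± 0.0560 points). That depth left out 44.4% of dim cells and 10.8% of bright cells. In 5 equal bins of CFP within each plate, from lowest to highest, the share at full depth was 1.00%, 1.05%, 1.04%, 1.05% and 1.11%, and at 500 UMIs 1.04%, 1.09%, 1.11%, 1.07% and 1.08%, with no steady order.

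**Figure D2:**
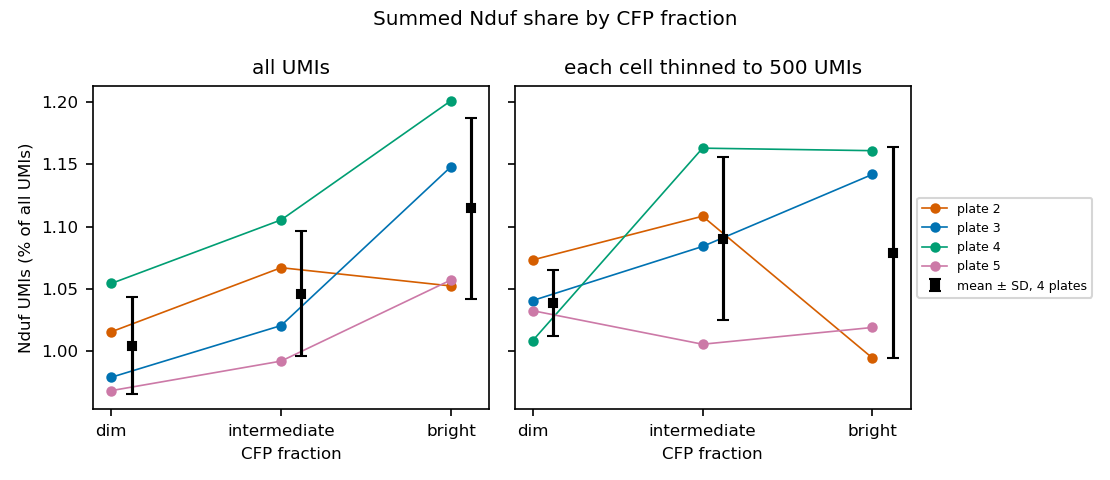
Nduf UMIs as a percentage of all UMIs in dim, intermediate and bright HSCs, at full depth (left) and with each cell thinned to 500 UMIs (right). Lines join the fractions of 1 sort plate, squares and bars are mean ± SD of 4 plates, and the axis does not start at 0. Bright lies above dim in 4 plates on the left and in 2 of 4 on the right.

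Gene by gene, 2 of 38 tested Nduf genes passed edgeR's quasi-likelihood test with plate as a block (Benjamini-Hochberg adjusted p under 0.05 over 4652 genes), against 9.05% of all tested genes. The share called among Nduf genes was 5.26%, no higher than the background. Of the 2, 1 rose, where 5.61% of all tested genes did, and 1 fell, where 3.44% did. DESeq2 called 0 of the 38 (5 at an unadjusted p under 0.05). Fold changes were positive for 30 of the 38 genes, with a median of 0.16 on the log2 scale, against a median of -0.03 over all tested genes. Without an adjustment 6 Nduf genes had p under 0.05 in edgeR, 5 of them higher in bright cells. No share of all tested genes is given at an unadjusted p or with DESeq2. Unless all genes are counted at the same threshold, unadjusted and DESeq2 counts here and below have no background to be read against.

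Ndufc1, a small single-span subunit of the membrane arm, rose in bright cells. Levels by fraction are CPM with edgeR's TMM scaling. Its level was 205, 260, 437 and 243 CPM in bright cells of plates 2 to 5, and 134, 146, 223 and 192 in dim cells. Every plate was higher in bright cells, although the groups overlapped because dim cells of plate 4 exceeded bright cells of plate 2. The log2 fold change was 0.72 ± 0.24 (SE) with an edgeR adjusted p of 0.0339. At 500 UMIs per cell it was 0.65 ± 0.41 with an adjusted p of 0.379. Among other settings, the call ended without plate 3 (edgeR adjusted p 0.124), without plate 4 (0.250), without the plate block (0.212), with CFP corrected for forward scatter (0.0604) and with DESeq2 (0.189).

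Ndufa6, a matrix-arm subunit of the LYR motif family, was the gene that fell. It had the most UMIs of the Nduf genes, 1557, and was found in 61.2% of cells. Bright cells had 654, 667, 759 and 690 CPM and dim cells 1194, 662, 920 and 944. Bright was below dim in 3 of 4 plates, with plate 3 near equal and the widest gap in plate 2. The log2 fold change was -0.42 ± 0.13 (SE) with an edgeR adjusted p of 0.0226. Without plate 2 it was -0.23 with an adjusted p of 0.421, and the call ended. Among other settings, it also ended without plate 4 (edgeR adjusted p 0.0524), without plate 5 (0.115), without the plate block (0.231) and with DESeq2 (0.113). At 500 UMIs per cell the value was -0.35 (edgeR adjusted p 0.313), and a repeat of the random draw gave -0.06.

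**Figure D3:**
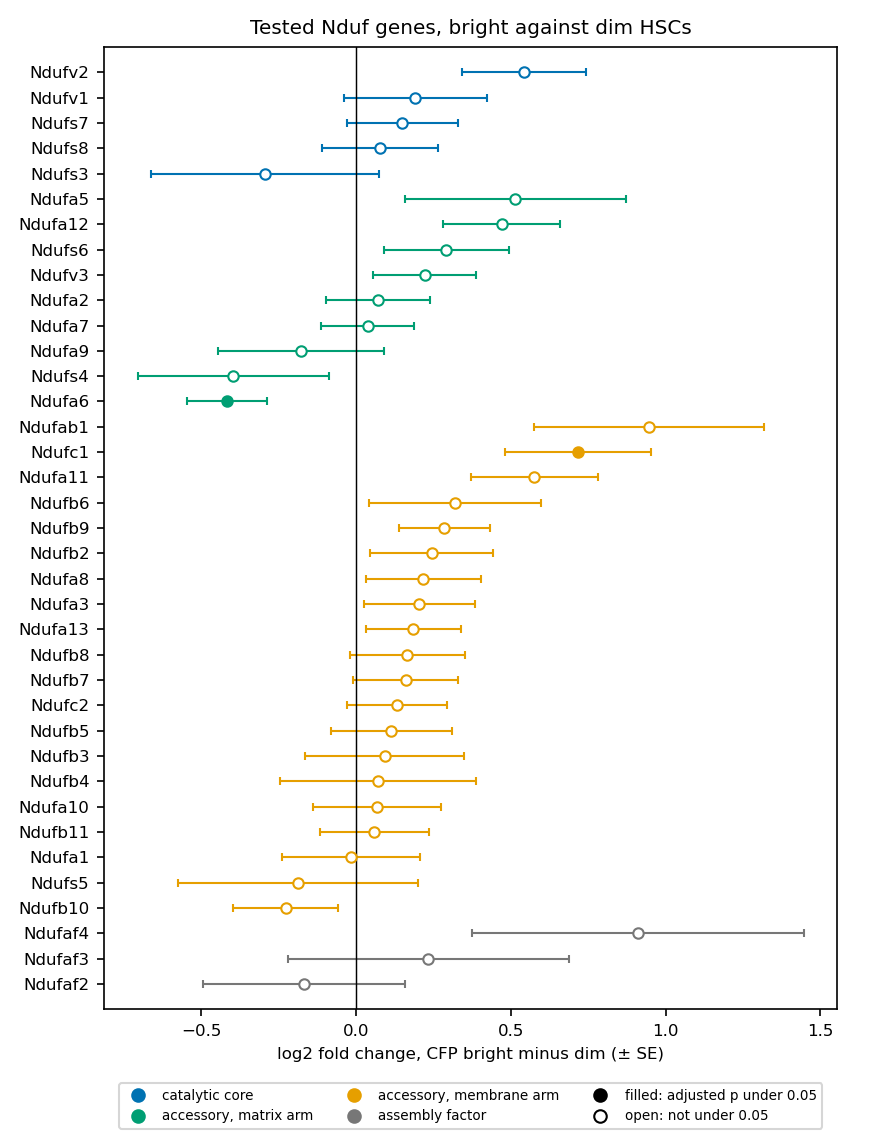
Log2 fold change (bright minus dim) with SE for 37 of the 38 tested Nduf genes, from edgeR on sums of 4 plates, coloured by role. Filled points are Ndufc1 (0.72) and Ndufa6 (-0.42), the genes under an adjusted p of 0.05, and 29 of 37 points lie above 0.

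In the catalytic core, which holds the flavin and the iron-sulphur clusters, 0 of 6 tested genes passed (edgeR; 1 at an unadjusted p under 0.05, and 0 with DESeq2), with a median log2 fold change of 0.17. Ndufv2, an iron-sulphur subunit of the NADH-oxidising module, had 307, 400, 408 and 342 CPM in bright cells and 201, 225, 282 and 295 in dim cells. These groups did not overlap, which in this direction held for 1 of 38 Nduf genes and 5.83% of all tested genes, and in the opposite direction for 0 of 38 and 3.05%. Its log2 fold change was 0.54 ± 0.20 (SE) with an edgeR adjusted p of 0.0700. Ndufv1, the subunit that binds the flavin and NADH, was at 0.19 ± 0.23 and at -0.12 at 500 UMIs, or 0.11 in a second draw. Ndufs7, which lines the ubiquinone site, was at 0.15 ± 0.18. Ndufs8, a carrier of iron-sulphur clusters, was at 0.08 ± 0.19, and Ndufs3, a core subunit of the same arm, at -0.29 ± 0.37. Each of these 4 genes had bright and dim plates that overlapped. Ndufs3 had 172 UMIs in all, and its plates ran from 52.6 to 115 CPM in bright cells and from 53.0 to 192 in dim cells.

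Of the 9 matrix-arm accessory genes, 1 fell (Ndufa6), 0 rose and the median log2 fold change was 0.07. Ndufa12, named after its value was seen, had 449, 497, 387 and 329 CPM in bright cells and 174, 305, 386 and 339 in dim cells. It was higher in bright cells of 3 plates, with a log2 fold change of 0.47 ± 0.19 and an edgeR adjusted p of 0.108. Ndufs4 was at -0.40 ± 0.31 (edgeR adjusted p 0.514) and was below dim in every plate. In plate 2, where it was nearly missing, bright and dim cells held 2 UMIs each and differed only in library size. Without plate 2 it was at -0.36. Ndufa7, Ndufa2 and Ndufv3, among the Nduf genes with the most UMIs, were at 0.04, 0.07 and 0.22, each with an SE of at most 0.17.

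The 20 membrane-arm accessory genes held 12333 of the Nduf UMIs, and 1 rose (Ndufc1) and 0 fell, with a median of 0.16. Ndufab1, the mitochondrial acyl carrier protein, had 173, 119, 115 and 131 CPM in bright cells and 53.7, 132, 59.3 and 29.5 in dim cells. It was higher in bright cells in 3 of 4 plates, with plate 3 the exception, and its log2 fold change was 0.95 ± 0.37 (edgeR adjusted p 0.0939). Without plate 3 the value was 1.54 with an adjusted p of 0.0295. Ndufa11, named after its value was seen, had 362, 386, 408 and 269 against 282, 199, 208 and 265, above dim in every plate. It missed the threshold with 0.58 ± 0.21 (edgeR adjusted p 0.0562), and passed without plate 5 at 0.76 (0.0311). Ndufb9 was above dim in every plate at 0.29 ± 0.15 (edgeR adjusted p 0.238). Ndufa13, Ndufc2, Ndufb7 and Ndufb11 were at 0.19, 0.13, 0.16 and 0.06, and Ndufb10 at -0.23, with edgeR adjusted p from 0.488 to 0.900. Those 5 genes had overlapping groups.

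Among the assembly factors, proteins that help build the complex without staying in it, 0 of 3 passed (edgeR; 0 at an unadjusted p under 0.05, 0 with DESeq2). Ndufaf4 had 70.9, 81.6, 43.0 and 92.0 CPM in bright cells and 67.1, 66.2, 14.8 and 0 in dim cells. Its log2 fold change of 0.91 ± 0.54 had an edgeR adjusted p of 0.336, and the counts behind it were small, at 98 UMIs in all. Ndufaf3, with 0 UMIs in dim cells of plate 5 as well, was at 0.23 ± 0.45 and Ndufaf2;mimitin at -0.17 ± 0.33.

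Against intermediate cells, bright cells had 2 of 38 Nduf genes past the threshold (background 8.77%), 1 higher (5.42%) and 1 lower (3.35%). These were again Ndufc1, at 0.52 ± 0.17 (edgeR adjusted p 0.0355), and Ndufa6, at -0.33 ± 0.11 (adjusted p 0.0442). Both comparisons share the bright cells. With plate 3, 4 or 5 left out, 0 of 38 passed against intermediate cells, and DESeq2 called 0 (4 at an unadjusted p under 0.05). Without plate 2, Ndufv1 (0.67, edgeR adjusted p 0.0229), Ndufb9 (0.43, 0.0264) and Ndufc1 (0.57, 0.0366) passed. Ndufa6 then did not pass (-0.29, 0.166). Between intermediate and dim cells, 0 of 38 Nduf genes passed (background 0.0215%; 1 at an unadjusted p under 0.05 in edgeR, 0 with DESeq2). At 500 UMIs per cell, bright against dim, 0 of 25 tested Nduf genes passed (background 7.47%; edgeR, 1 at an unadjusted p under 0.05), with a median log2 fold change of 0.00. That median stood at -0.02 over all 977 genes tested at this depth. Ndufv2 was the gene under 0.05 without an adjustment there, at 0.69 ± 0.35 (SE), and at 0.59 in a second draw. Against intermediate cells 0 of 25 passed as well (background 6.45%; edgeR, 1 at an unadjusted p under 0.05).

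Other genes of the chain were taken from lists of the remaining respiratory complexes, to be read against the 5.61% of all tested genes called higher and the 3.44% called lower in bright cells. Of the other complex I assembly factors 0 of 6 passed (edgeR; 0 at an unadjusted p under 0.05, 0 with DESeq2), and of complex II 0 of 4 (1 and 0). Complex III and cytochrome c had 1 of 8 higher, Uqcrc1, a core subunit, at 1.03 ± 0.24, which DESeq2 also called. Uqcrc1 plates did not overlap, with 282 to 370 CPM in bright and 146 to 163 in dim cells. In complex IV, 2 of 9 rose, Cox5a at 0.53 and Cox6a1 at 0.37, and 1 fell, Cox7a2l, a factor that joins complexes III and IV, at -0.65 ± 0.13 (edgeR adjusted p 4.21e-05). DESeq2 called 1 of these 3, Cox7a2l. In ATP synthase 3 of 13 rose, Atp5o at 0.51, Atp5g3 at 0.49 and Atp5b at 0.32, and DESeq2 called 1 of them, Atp5g3. Tricarboxylic acid cycle genes had 0 of 12 past the threshold (edgeR; 3 at an unadjusted p under 0.05, 0 with DESeq2).

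Cell-cycle genes moved in the same comparison. In bright against dim cells, 24 of 34 tested S-phase genes and 27 of 36 G2/M genes rose and 0 of either fell, and at 500 UMIs these lists made up 1.32% of UMIs in bright and 0.526% in dim cells. In a further fit the 20% of cells highest in these genes were left out. CFP fractions were reset among the cells kept (229 bright and 229 dim), so some cells changed fraction. That fit gave 0 of 37 Nduf calls (background 0.937%, edgeR, 3 at an unadjusted p under 0.05), with a median log2 fold change of 0.15. HSC markers were present for 14 of 14 genes, with 5 of 12 tested lower in bright cells (Hlf, Mecom, Mllt3, Pdzk1ip1 and Ifitm1) and 0 higher. Their summed level was 0.362% to 0.443% of UMIs in bright plates and 0.433% to 0.773% in dim plates. Neutrophil and monocyte markers ran from 0.0989% to 0.111% in bright and 0.135% to 0.169% in dim plates, with 2 of 4 lower (Mpo and Prtn3 in edgeR, Prtn3 alone in DESeq2). Erythroid markers ran from 0.0339% to 0.175% and from 0.0575% to 0.446%, megakaryocyte markers from 0.0486% to 0.0825% and from 0.0286% to 0.0576%, with 0 called in either list (edgeR; 2 and 2 at an unadjusted p under 0.05, 0 with DESeq2). Lymphoid markers had Cd3d, Cd3e, Cd79a and Ms4a1 at 0 UMIs, and ran from 0.0192% to 0.0484% in bright and from 0.0373% to 0.0616% in dim plates, with 1 of 3 tested lower (Cd74; edgeR and DESeq2). The part of cell cycle, depth and other cell types in the Nduf values was not tested.

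The index record also gives each cell a group number from 1 to 10, called a map group here. The record does not say how the numbers were made, and they may come from these same UMIs, so values by group are a description with no test. Groups 8 to 10 held 66.8% of bright cells and 9.44% of dim cells. They were richer in S and G2/M genes, at 1.07%, 1.41% and 2.00% of UMIs in groups 8, 9 and 10. Groups 2 to 7 had 0.453% to 0.582% (each cell at 500 UMIs). They were also deeper, with medians of 1432.5, 2340.5 and 1459 UMIs against 974 to 1246 in groups 2 to 7. The Nduf share in groups 8 to 10 was 1.06%, 1.14%, 1.21% and 1.09% in plates 2 to 5, against 1.05%, 0.998%, 1.07% and 0.962% in groups 2 to 7. It was higher in 4 of 4 plates by a mean of 0.103 ± 0.0652 points, with plate 2 nearly level. At 500 UMIs the gap was 0.0599 ± 0.0326 points and again positive in 4 of 4 plates. At 1000 UMIs it was 0.122 ± 0.0834 points and positive in 3 of 4.

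By single group, the mean share at full depth was 1.06% in group 2, 1.05% in group 3, 0.972% in group 4, 0.997% in group 5, 1.25% in group 6, 1.10% in group 7, 1.12% in group 8, 1.14% in group 9 and 1.03% in group 10. Group 6 was the highest of groups 2 to 10 in each of the 4 plates, at 1.18%, 1.30%, 1.33% and 1.20%, and also at 500 UMIs, with a mean of 1.36% ± 0.133. At 1000 UMIs it was the highest in 3 plates, while group 7 was highest in plate 4. Group 6 has 33 cells, 5 to 14 a plate, and 465 Nduf of 37482 UMIs, a pooled share of 1.24% (exact Clopper-Pearson 95% interval 1.13% to 1.36%, counting error only). Group 8, pooled, was at 1.14% (1.11% to 1.18%), so the intervals of groups 6 and 8 overlapped. The median depth of group 6 was 1080 UMIs, against 1060 in dim and 1234 in intermediate cells. Its share of S and G2/M genes, 0.582%, lay between the 0.526% of dim and the 0.630% of intermediate cells. That share was the highest of groups 2 to 7. Bright cells made up 18.2% of group 6 and dim cells 12.1%. Of the 38 tested genes, 16 had their highest mean level in group 6 and 6 their lowest. In group 10, 11 had their lowest and 2 their highest. Groups 6 and 10 held the fewest cells of groups 2 to 10 (33 and 42). No such count over all tested genes is given, so these counts have no background to be read against. Groups 7, 8 and 9, next to each other in the order of mean share at full depth, lay within the SD of each other. Pooled over plates at 500 UMIs, groups 2 to 10 were at 1.15%, 1.06%, 0.995%, 1.05%, 1.34%, 1.10%, 1.15%, 1.09% and 1.10%. Group 6 stayed highest and group 4 lowest. Group 2 was then level with group 8 and above groups 9 and 10, with overlapping intervals, so the full-depth order was partly lost. The 10 cells of group 1 had a share of 0.732% ± 0.183 over plates of 2 to 4 cells.

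**Figure D4:**
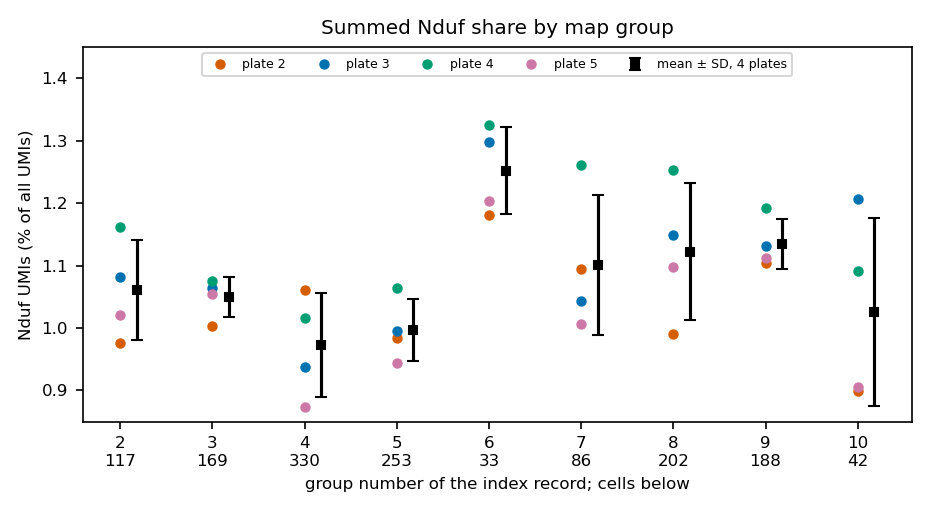
Nduf UMIs as a percentage of all UMIs, at full depth, in map groups 2 to 10 of the index record. Points are sort plates, with mean ± SD of 4 plates beside them and the number of cells under each group. The axis does not start at 0. Group 6, with 33 cells, holds the highest point of each plate, and group 4 has the lowest mean at 0.972%.

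CFP and map group were also read together, first at full depth. Within groups 2 to 7 the 93 bright cells had a mean share of 0.998% ± 0.0560 (SD, n = 4 plates), the 637 intermediate cells 1.03% ± 0.0677 and the 258 dim cells 1.01% ± 0.0342, with bright and dim plates overlapping. Within groups 8 to 10 the 191 bright cells were at 1.16% ± 0.0803, the 214 intermediate cells at 1.09% ± 0.0567 and the 27 dim cells at 0.950% ± 0.159. In plate 2 dim cells there were slightly above bright cells, at 1.09% against 1.08%, and in plates 3 to 5 they were below. This order was not kept at 500 UMIs. Intermediate cells of groups 8 to 10 then had 1.14% ± 0.0953, above bright cells at 1.10% ± 0.103. Dim cells had 1.01% ± 0.207, and the plate values of all fractions overlapped. For groups 2 to 7 the means at 500 UMIs were 1.06% (bright), 1.07% (intermediate) and 1.04% (dim). With CFP fractions reset among groups 2 to 7, 0 of 31 Nduf genes and 0 of 2399 genes passed (edgeR; 1 and 161 at an unadjusted p under 0.05). Ndufv2 was at -0.20 there, Ndufc1 at 0.36 and Ndufa6 at -0.14.

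Between groups 8 to 10 and groups 2 to 7, 31 of 38 Nduf genes were higher on average, with a median log2 difference of 0.16 against -0.00 over all tested genes. The plate values did not overlap for 4 Nduf genes that were higher (background 8.49%), Ndufv2, Ndufab1, Ndufb7 and Ndufb9, and for 1 that was lower (background 4.62%), Ndufa6. Ndufv2 was at 301, 358, 379 and 344 CPM in groups 8 to 10 and 254, 214, 267 and 252 in groups 2 to 7. At 500 UMIs 0 genes were higher without overlap (background 5.03%) and 1 was lower (background 2.88%), again Ndufa6.

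Ndufa6 was 680, 608, 675 and 617 CPM in groups 8 to 10 and 898, 717, 846 and 785 in groups 2 to 7. The lower level was not shared by those 3 groups. Group 9 was at 609, 525, 495 and 485 in plates 2 to 5, group 10 at 764, 1084, 1217 and 1183 and group 8 at 885, 634, 734 and 659. Group 10 was thus above group 9 in every plate with no overlap, and its mean of 1062 was the highest of groups 2 to 10. Group 10 has 42 cells, 7 to 15 a plate, and 77722 UMIs in all, so few UMIs stand behind each plate value. Neither an equal-depth value nor the share of all genes that differ in this way is given.

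The widest positive differences were Ndufaf4 (61.9 against 36.1 CPM, log2 0.76 ± 0.52 SD over plates), Ndufa5, a subunit of the ubiquinone module (110 against 69.4, 0.72 ± 0.41), and Ndufab1 (118 against 74.0, 0.68 ± 0.35), each higher in 4 of 4 plates. At 500 UMIs these differences were 0.52 ± 0.34 for Ndufaf4 and 0.38 ± 0.61 for Ndufab1, each higher in 3 plates, and 0.09 ± 0.55 for Ndufa5, higher in 2 plates. The widest negative ones were Ndufa3, Ndufaf3 and Ndufa6. Ndufaf3 was lower in 4 of 4 plates (50.1 against 70.6, -0.47 ± 0.13), although its plates overlapped, and was at -0.43 ± 0.30 at 500 UMIs. Ndufa3 averaged -0.50, with plate 2 at 4.62 against 49.2. In plates 3 to 5 it was higher in groups 8 to 10, at 592, 538 and 529 against 449, 507 and 400.

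The share was also read in 3 equal bins of UMIs per cell within each plate, with CFP and map group not held fixed. At 500 UMIs the Nduf share was 1.16% ± 0.0577 (SD, n = 4 plates) in the bin with fewest UMIs, 1.03% ± 0.0496 in the middle and 1.04% ± 0.0565 in the bin with most. The bin with most UMIs was below the bin with fewest in 4 of 4 plates, also at full depth, with differences of -0.116 points at 500 UMIs and -0.0682 points at full depth. Across cells within a plate, the thinned Nduf count had a mean Spearman rho of 0.01 with CFP and -0.08 with UMIs per cell (4 plates, 1430 cells that share plates and libraries). A cell thinned to 500 UMIs held a median of 5 Nduf UMIs, from 0 to 16, with a mean of 5.39 and a variance of 6.19.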

How the data were processed

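UMI counts per gene entry and well are as the authors deposited them. Per the labels' protocols, cDNA carried barcoded primers and was pooled before amplification. The sources used here do not say which aligner, annotation and build made this table. The submitters' processing notes name STAR, featureCounts, cutadapt, mm10 and mm9 with no role for each. The index record holds, per the file headers, a forward scatter intensity, the CFP signal, whose values are log10 of a whole number in the deposited file, and the map number, a score from 1 to 10 whose origin the authors' file does not state. How reads shared between a gene and a copy or an overlapping gene were counted, strand and doublet removal are not stated, and no doublet caller was run on the index-sorted wells.

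Cells used were the 1430 of 1536 wells that the index record lists, all of them past a minimum of 500 UMIs, with 483734 to 563679 UMIs a plate. Counts were summed by plate and CFP fraction, giving 12 libraries of 76354 to 314856 UMIs, and tested with edgeR 4.0.16 (R 4.3.3; filterByExpr on the design, TMM, quasi-likelihood F test, Benjamini-Hochberg over 4652 genes). SE is the absolute log2 fold change divided by the square root of F. Plate is the block because bright, intermediate and dim cells of 1 plate share that plate. The main fit left 6 residual degrees of freedom per gene, against 276.4 from the spread pooled over genes. At 500 UMIs the pooled spread replaced a gene's own. Thinning drew 500 or 1000 UMIs per cell without replacement. The script was tested on simulated data. A filter set by CFP fraction alone (3836 genes) was used first and replaced after its calls had been seen. DESeq2 1.42.0 and the settings in the closing section were alternatives. Genes named are the called members, the core genes, tested assembly factors, the 10 with the highest mean CPM, and the 3 widest differences each way by CFP and by map group. Others are said to be named after their values were seen. Members and lists were chosen with earlier results of these data known. One core gene and 1 marker stay in sums and counts but are not reported here by name. Bulk and bisulphite samples were not analysed here.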

Additional observations from a re-analysis of the deposited data

Results flagged for a closer look

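Of 56 groups of 4 plate values examined, 3 had a plate far from the others, where chance gives about 1 in 20. Ndufa3 had 28.9 CPM in plate 2, with 451 to 521 in the others, and Ndufa9 had 16.5 CPM in plate 2, with 182 to 205 in the others. Ndufa1, a small membrane-arm subunit, had 188 CPM in plate 5, with 211, 214 and 215 in plates 2, 3 and 4, a narrow spread in which plate 5 was the lowest. Ndufa3 and Ndufa9 are 2 of the 4 Nduf genes that were more than 5 times lower in plate 2.

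The 106 wells with no index record, which entered no comparison, held 247 Nduf UMIs among 25068 (0.985%, exact Clopper-Pearson 95% interval 0.867% to 1.12%). Their median was 224 UMIs a well and the highest 502. That share lay slightly below the 1.01% to 1.13% of the plates' kept cells, and its interval overlapped them.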

How the results depend on the processing

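The 2 calls of bright against dim cells became 0 with DESeq2, with no replicate block, at 500 UMIs per cell, with 30% CFP fractions, without the 20% of cells highest in cycle genes and within map groups 2 to 7. They became 1 at 1000 UMIs per cell (Ndufc1) and 0 to 2 with 1 plate left out, Ndufc1 without plate 2, Ndufa6 and Ndufab1 without plate 3, 0 without plate 4 and Ndufa11 and Ndufc1 without plate 5. With CFP corrected for scatter they became 3, Ndufa6, Ndufa12 and Ndufab1, and among cells of at least 1000 UMIs they were Ndufa12 and Ndufc1. In fits that left out cells within plates, CFP fractions were reset among the cells kept. The fits at 1000 UMIs thus had 205 bright and 205 dim cells, whereas the summed Nduf share at 1000 UMIs kept the first fractions. The block pairs fractions of 1 plate: without it Ndufa6 stayed at -0.42 (edgeR adjusted p 0.231) and Ndufc1 at 0.73 (0.212), and 125 genes passed in place of 421. The 2 calls of bright against intermediate cells became 0 with DESeq2, no filter, no replicate block, 500 or 1000 UMIs per cell, 30% fractions, CFP corrected for scatter, no cycling cells, and map groups 2 to 7. They became 1 with upper quartile scaling, with cells of at least 1000 UMIs, and, in settings added after seeing the data, with tied CFP values reversed or the filter set by fraction. They became 4 without map group 1, also added later, and 0 to 3 with 1 plate left out. The 3 were Ndufv1, Ndufb9 and Ndufc1, without plate 2. With no filter, the median of all genes moved from -0.03 to 0.07, and Ndufa11, Ndufc1 and Ndufv2 passed.

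The summed share difference of 0.111 points was 0.0405 at 500 UMIs and 0.0910 to 0.135 with 1 plate left out. The 4 of 38 genes higher in map groups 8 to 10 with no overlap (background 8.49%) became 0 at 500 UMIs (background 5.03%). With 1 plate left out, where only 3 plates a side are compared, they became 7 to 13 (background 11.4% to 15.3%). The 1 lower gene (background 4.62%) then became 1 to 2 (background 7.52% to 12.9%). Of the alternative values for single named genes, 339 kept direction and call, 21 lost the call, 3 gained it and 29 changed sign. The 29 belong to genes that had not passed in the reported test.

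Over all tested Nduf genes, 10 of 25 changed sign at 500 UMIs, 6 of 30 at 1000 UMIs, 10 of 31 within map groups 2 to 7, 6 of 37 without cycling cells, and 11 of 38 in at least 1 setting with a plate left out. Among the named genes, sign changes at 500 UMIs were Ndufv1 -0.12, Ndufc2 -0.18, Ndufa2 -0.19 and Ndufb11 -0.36, and at 1000 UMIs Ndufc2 -0.16 and Ndufb11 -0.065. With 30% fractions they were Ndufaf2;mimitin 0.074 and Ndufa7 -0.037, and with scatter correction Ndufaf3 -0.023. Without cycling cells they were Ndufv1 -0.11, Ndufaf2;mimitin 0.019, Ndufb9 -0.027, Ndufa7 -0.039 and Ndufb7 -0.10. Within map groups 2 to 7 they were Ndufs3 0.015, Ndufv1 -0.057, Ndufv2 -0.20, Ndufb9 -0.042, Ndufa7 -0.085, Ndufv3 -0.12 and Ndufb7 -0.17. With 1 plate left out, 7 of the named genes changed sign, Ndufs3 (-0.62 to 0.30), Ndufs7 (-0.048 to 0.34), Ndufaf3 (-0.072 to 0.74), Ndufa7 (-0.12 to 0.12), Ndufc2 (-0.023 to 0.32), Ndufa2 (-0.015 to 0.22) and Ndufb11 (-0.088 to 0.15). The cause of these changes was not tested. Depth limits single genes: a cell thinned to 500 UMIs holds a median of 5 Nduf UMIs.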
